A study of Mus musculus with 24 samples.

Results

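Glutathione synthesis and the gamma-glutamyl cycle were followed through 10 genes in mouse kidneys after deletion of Pex5 in the renal tubule. The genes were chosen by name for their place in the pathway, with earlier results of these data known, and all 10 were among the 16092 genes tested, of 55335 genes in the count files. Gclc, Gclm and Gss encode the enzymes that make glutathione, Gsr the enzyme that reduces it after oxidation, and Ggt1, Ggt6, Dpep1, Lap3, Ggct and Oplah enzymes that split it or recycle its parts.

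Pex5 encodes the cytosolic receptor that carries most matrix enzymes into peroxisomes. RNA-seq was performed on 24 whole-kidney samples from adult mice on the C57BL/6J background, 6 in each of 4 groups. Male (cKOm) and female (cKOf) Pex5lox/lox/Pax8-rtTA/LC1 mice received doxycycline (DOX) for 2 weeks from 8 weeks of age, and kidneys were taken 4 weeks later, at 14 weeks. Littermates with the same floxed alleles but without Pax8-rtTA and LC1 (Ctrlm and Ctrlf) received the same DOX. Pax8-rtTA directs the DOX-induced Cre of LC1 to the tubule, whereas the whole kidney was sequenced, so vessels, glomeruli and interstitium contributed RNA from cells that were not targeted. The transgenes were present only in cKO mice, so their effect and that of the deletion cannot be told apart. The labels give ZT3 as the circadian time of the experiments and ZT9 as that of tissue collection.

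Glutathione is a tripeptide of glutamate, cysteine and glycine and the main soluble thiol of most cells. It is made in the cytosol by glutamate-cysteine ligase and glutathione synthetase. Exported glutathione is cut outside the cell by gamma-glutamyltransferase and dipeptidase, whose products are taken up again as amino acids and small peptides. The brush border of the proximal tubule is one of the richest sites of gamma-glutamyltransferase in the body, and renal epithelium takes a large share of plasma glutathione apart in this way.

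The depth on genes was 19376152 to 28470831 counts a kidney (median 21592601). Values are given as CPM, the counts scaled to the effective size of each library by TMM. A difference was called when its adjusted p, from edgeR's quasi-likelihood test with Benjamini-Hochberg adjustment over all genes, was under 0.05. Pex5 itself had a median of 53.3 CPM in Ctrlm and 42.9 CPM in cKOm mice, with no overlap of the 6 and 6 kidneys, and 48.2 and 44.0 CPM in Ctrlf and cKOf mice, which overlapped. It was 1.24-fold lower in cKOm mice (edgeR adjusted p = 0.0219) and 1.15-fold lower in cKOf mice (edgeR adjusted p = 0.177). These counts include reads from cells in which Pex5 was not targeted. They are totals per gene and do not separate full-length from shortened transcripts. The paper reported that Pex5 mRNA fell significantly in both sexes in its own assay. It described PEX5 protein as nearly gone in cKOm mice and as reduced but present in cKOf mice. By its electron microscopy, proximal tubules of both had hardly any peroxisomes. The labels do not say which animal each sample came from, so p-values measure the spread between these samples, called kidneys here.

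Some kidneys stood apart before any member was considered. The summed level of 10 hepatocyte marker transcripts ranged from 75.9 to 929.8 CPM (median 597) in Ctrlm and from 87.9 to 448 CPM (median 107) in cKOm mice, against 38.3 to 102 CPM in the 12 female kidneys. All 10 markers were detected in every group. The high values were those of Ctrlm replicates 1 to 4 and cKOm replicate 4, so results in males are given with these 5 kidneys and, where a call differed, without them. Ctrlf replicate 1 had a leukocyte marker sum of 1192 CPM against a group median of 201 CPM. The label of whole kidney was checked on markers of proximal tubule S1 and S2 segments (6 genes), which summed to between 6403 and 9000.4 CPM in every kidney.

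In kidneys of cKOm mice, 6 of the 10 genes were lower than in Ctrlm mice and 1 was higher. Lap3, Ggt1, Ggct, Gsr, Gss and Gclm fell and Ggt6 rose, whereas Gclc, Oplah and Dpep1 did not pass the test. Over all tested genes 9.05% were called in this comparison, 4.9% lower and 4.14% higher. For 5 of the 10 genes (Gsr, Ggt1, Ggt6, Ggct and Lap3) the 6 cKOm and 6 Ctrlm kidneys did not overlap, against 7.38% of all tested genes. The median log2 fold change was -0.39 over the 10 genes and 0.01 over all tested genes. In whole kidney, fewer cells of a type and less RNA per cell cannot be told apart.

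**Figure D1:**
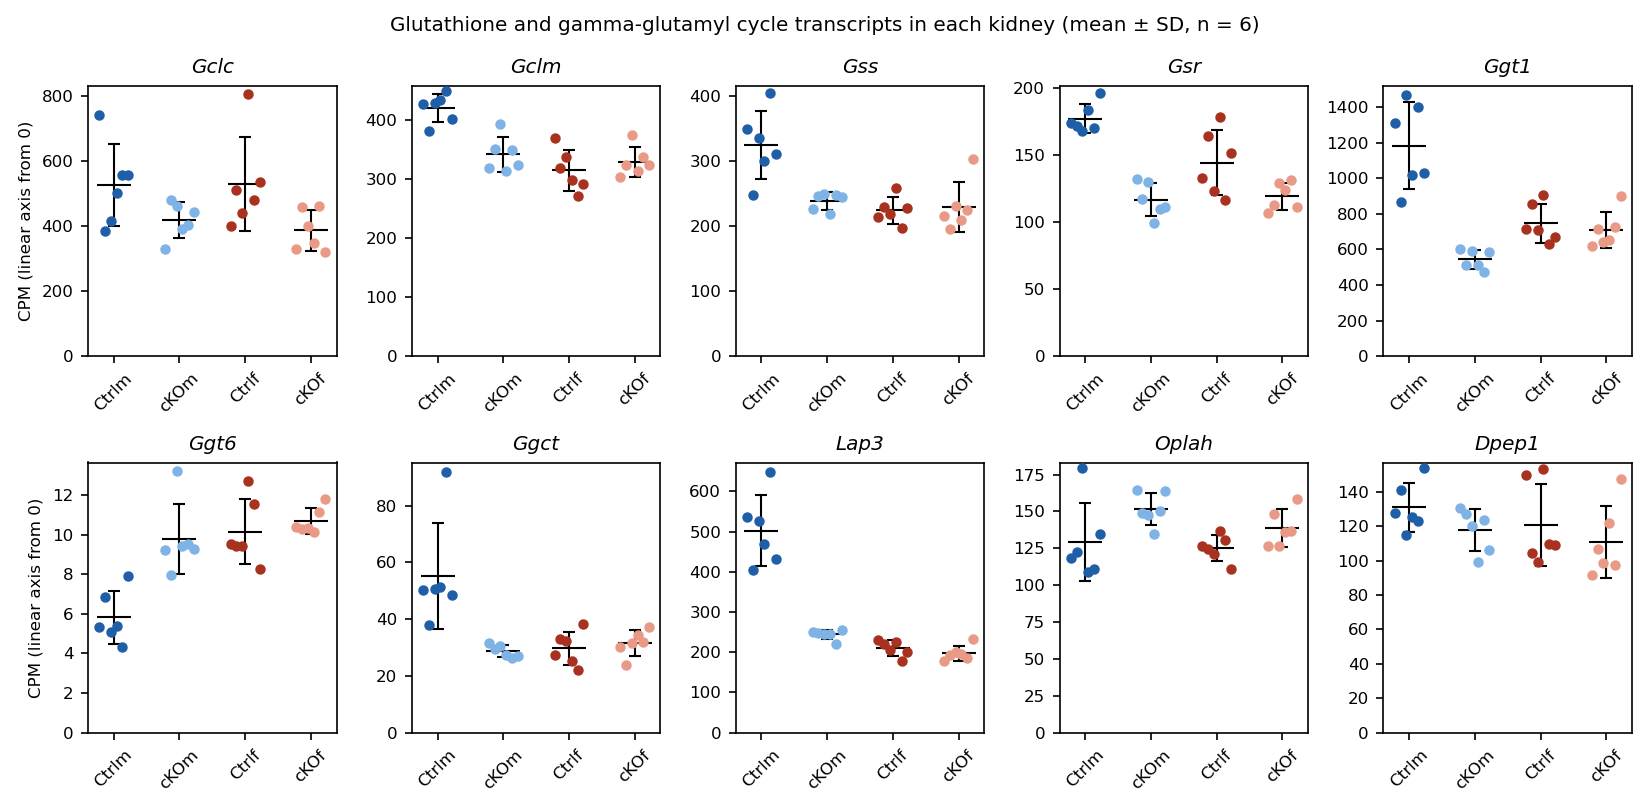
Level of the 10 genes in each of the 24 kidneys, in CPM on a linear axis from 0 in every panel, by group (points: kidneys, bars: mean ± SD, n = 6). All 6 Ctrlm kidneys lie above all 6 cKOm kidneys for Gsr, Ggt1, Ggct and Lap3 and below them for Ggt6, while Ctrlf and cKOf kidneys overlap in all 10 panels.

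In kidneys of cKOf mice none of the 10 genes was called against Ctrlf mice by edgeR, where 0.851% of all tested genes were, and the groups overlapped for all 10, where 0.559% of all tested genes did not. At an unadjusted p under 0.05 there were 2, Gclc and Gsr (6.73% of all tested genes). DESeq2 called 1 of the 10 genes, Gclc, where it called 1.17% of all tested genes. Their median log2 fold change was -0.02, against 0.00 over all tested genes. For 3 genes, Ggt1, Ggct and Lap3, the genotype effect itself differed between males and females by edgeR's test of the interaction. This test called 2.31% of all tested genes. The paper found some full-length Pex5 mRNA and PEX5 protein left in cKOf mice and proposed that excision was incomplete there. In each comparison of the sexes after deletion, sex and the extent of deletion therefore cannot be told apart.

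The sequence before a transcription start is shown for the 4 genes with the largest fold changes in males, so that the letters of 2 well known response elements can be seen in place. RefSeq's promoter table (GRCm38.p6) held 10 promoters of 7 of the 10 genes, 4 of them for Ggt1, and lacked Gclc, Gsr and Oplah. In the 250 bases before each start, both strands were searched for TGACNNNGC, the core of the antioxidant response element, and for AGAACA, the repeated unit of the androgen response element. TGACNNNGC was found before 4 starts of 3 genes (Gclm, Ggct and Ggt1) and in 10.2% of all 32851 promoters, and AGAACA before 3 starts of 3 genes (Gclm, Lap3 and Ggt6) and in 16.1% of all promoters. Both sequences occurred before Gclm, and neither before Gss or Dpep1. Each stretch is written 5′ to 3′ on the strand of its gene, without bases that lie in an annotated exon, and capitals mark the match. For Ggt1 it is the stretch before 1 of its 4 starts, inside the gene. It was picked as the first that kept a match once exon bases were removed. The Ggt1 stretches from chr10:75563882 and chr10:75573245 held no match. For Ggt1 and Ggct the capitals are the antioxidant response element core, read on the gene's strand for Ggt1 and on the other strand for Ggct. For Lap3 and Ggt6 they are the unit of the androgen response element, read on the gene's strand for Lap3 and on the other strand for Ggt6. A match describes letters and not binding.
Ggt1 chr10:75571310-75571525 (+ strand): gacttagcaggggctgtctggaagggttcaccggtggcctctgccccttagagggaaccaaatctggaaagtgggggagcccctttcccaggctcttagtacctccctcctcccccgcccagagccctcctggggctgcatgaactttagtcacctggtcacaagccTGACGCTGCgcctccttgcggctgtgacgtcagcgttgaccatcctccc
Ggct chr6:54992951-54993117 (- strand): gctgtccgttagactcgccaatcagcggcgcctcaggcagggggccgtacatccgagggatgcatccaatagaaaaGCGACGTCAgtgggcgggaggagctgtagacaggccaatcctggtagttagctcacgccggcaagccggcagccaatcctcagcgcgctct
Lap3 chr5:45493124-45493373 (+ strand): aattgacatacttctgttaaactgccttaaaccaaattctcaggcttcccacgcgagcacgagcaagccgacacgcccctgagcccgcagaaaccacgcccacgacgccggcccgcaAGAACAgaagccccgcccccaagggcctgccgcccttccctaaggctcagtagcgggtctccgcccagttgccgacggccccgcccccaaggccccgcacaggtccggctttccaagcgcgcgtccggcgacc
Ggt6 chr11:72435276-72435525 (+ strand): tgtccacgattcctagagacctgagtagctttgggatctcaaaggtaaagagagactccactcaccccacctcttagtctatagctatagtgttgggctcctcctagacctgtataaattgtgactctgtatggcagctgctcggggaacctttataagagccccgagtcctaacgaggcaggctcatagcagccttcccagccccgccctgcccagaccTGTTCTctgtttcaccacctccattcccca

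Gclc (chr9:77754535-77794485, GRCm38) encodes the catalytic subunit of glutamate-cysteine ligase, which joins glutamate to cysteine in the first and rate-limiting step. It ranged from 385 to 741 CPM in Ctrlm (median 528), from 328 to 479 in cKOm (median 424), from 399.9 to 806 in Ctrlf (median 494) and from 319 to 462 in cKOf mice (median 374). The groups overlapped in both sexes, and the control kidneys spread most widely, with an SD of 127 CPM in Ctrlm and 144 CPM in Ctrlf mice. The estimates were 1.26-fold lower in males and 1.37-fold lower in females, and neither passed the test. The log2 fold change was -0.33 (SE 0.15, edgeR adjusted p = 0.281) in males, and in females -0.45 (SE 0.15, edgeR adjusted p = 0.0977). In females it was called in only 2 of 22 alternatives, with an adjusted p of 0.0430 by DESeq2 and 0.0497 by edgeR without Ctrlf replicate 1. With adjustment within each sex the edgeR adjusted p was 0.438.

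Gclm (chr3:122245557-122270732) encodes the modifier subunit, which raises the affinity of the ligase for glutamate and eases its inhibition by glutathione. Its level was 382 to 449 CPM in Ctrlm (median 428), 314 to 394 in cKOm (median 337), 272 to 369.6 in Ctrlf (median 309) and 304 to 376 in cKOf mice (median 324). Ctrlm kidneys were the highest, with 1 cKOm kidney reaching into their range, and the other 3 groups lay together. Gclm was 1.23-fold lower in cKOm than in Ctrlm mice (log2 fold change -0.30, SE 0.08, edgeR adjusted p = 0.0181). This was the least secure of the 6 decreases, since the edgeR adjusted p was 0.0512 without cKOm replicate 4, 0.0606 with the hepatocyte score as a covariate and 0.176 without the 5 kidneys high in hepatocyte transcripts. The male log2 fold change without these 5 kidneys was -0.33. In females the log2 fold change was 0.07 (95% interval -0.09 to 0.22).

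Gss (chr2:155563181-155592810) encodes glutathione synthetase, which adds glycine. Ctrlm kidneys held 248 to 405 CPM (median 323), cKOm kidneys 218 to 249 CPM (median 246), Ctrlf kidneys 197 to 259 CPM (median 223) and cKOf kidneys 195 to 303 CPM (median 220.0). Only the lowest Ctrlm kidney came down to the cKOm range. The transcript was 1.36-fold lower in cKOm mice (log2 fold change -0.44, SE 0.10, edgeR adjusted p = 0.00730) and differed by 0.03 on the log2 scale in females (95% interval -0.17 to 0.24). Of its exon bases, 6.68% are shared with Acss2, an acetyl-CoA synthetase gene on the opposite strand that was itself 1.66-fold lower in cKOm mice (291 against 175 CPM in the mean), and the strand setting of the counting is not given in the sources used here. Acss2 was looked at after its values were seen.

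Gsr (chr8:33652523-33698163) encodes glutathione reductase, which uses NADPH to return glutathione disulfide to glutathione. Its values were 168 to 197 CPM in Ctrlm (median 173), 99.5 to 132 in cKOm (median 114), 116 to 178 in Ctrlf (median 142) and 107 to 131 in cKOf mice (median 118). Every Ctrlm kidney exceeded every cKOm kidney, and the cKO groups of both sexes lay in the same range. The decrease was 1.52-fold in males (log2 fold change -0.60, SE 0.09, edgeR adjusted p = 9.6e-05). In females it was estimated at 1.21-fold (log2 fold change -0.28, SE 0.09), with an edgeR adjusted p of 0.0973 over all kidneys and 0.0275 without Ctrlf replicate 5. That was the only call of Gsr in females among 22 alternatives. With adjustment within each sex the edgeR adjusted p was 0.438. The effects in the sexes differed by -0.33 on the log2 scale (95% interval -0.60 to -0.06, edgeR adjusted p = 0.254), so a smaller change in females was not established for Gsr.

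Ggt1 (chr10:75561604-75586200) encodes the gamma-glutamyltransferase of the brush border, which removes the glutamyl residue of extracellular glutathione. The 6 Ctrlm kidneys held 868 to 1469 CPM (median 1171) and the 6 cKOm kidneys 473 to 600.1 CPM (median 549). Female medians lay between, at 630.5 to 907 CPM in Ctrlf (median 710.4) and 622 to 902 CPM in cKOf mice (median 683), and the highest female kidneys reached into the Ctrlm range. The cKOm group was the lowest of the 4 and overlapped no other group. Ggt1 was 2.17-fold lower in cKOm than in Ctrlm mice (log2 fold change -1.12, SE 0.12, edgeR adjusted p = 4.74e-07), the largest of the 10 changes, and -0.08 on the log2 scale in females (95% interval -0.32 to 0.17). The genotype effect in males minus that in females was -1.04 (SE 0.17, edgeR adjusted p = 0.000515).

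Ggt6 (chr11:72435526-72438400) encodes a less studied member of the gamma-glutamyltransferase family and was the only one of the 10 to rise. It was scarce, at 4.33 to 7.94 CPM in Ctrlm (median 5.36), 7.98 to 13.2 in cKOm (median 9.36), 8.27 to 12.7 in Ctrlf (median 9.47) and 10.2 to 11.8 in cKOf mice (median 10.4), with at least 83 counts in every kidney. The highest Ctrlm kidney lay just below the lowest cKOm kidney, so the groups were separate by a narrow margin. The increase was 1.67-fold (log2 fold change 0.74, SE 0.14, edgeR adjusted p = 0.000972). Without the 5 kidneys high in hepatocyte transcripts the log2 fold change was 0.65 and the edgeR adjusted p 0.153. In females it was 0.07 (95% interval -0.21 to 0.35).

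Dpep1 (chr8:123186242-123201812) encodes membrane dipeptidase, which splits the cysteinylglycine left by gamma-glutamyltransferase. Its range was 115 to 154 CPM in Ctrlm (median 127), 99.3 to 131 in cKOm (median 122), 99.4 to 153 in Ctrlf (median 109.5) and 91.8 to 148 in cKOf mice (median 103). All 4 groups overlapped. The log2 fold change was -0.15 in males (95% interval -0.40 to 0.09, edgeR adjusted p = 0.608) and -0.13 in females (95% interval -0.37 to 0.12, edgeR adjusted p = 0.687). The change of Ggt1, the enzyme whose product it splits, lies outside this interval in males.

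Lap3 (chr5:45493374-45512691) encodes cytosolic leucine aminopeptidase, which also cleaves cysteinylglycine inside the cell. Ctrlm kidneys held 405 to 649 CPM (median 498) and cKOm kidneys 221 to 255 CPM (median 247), next to 179 to 230.2 CPM in Ctrlf (median 213) and 178 to 233 CPM in cKOf mice (median 194). Ctrlm stood alone and the other 3 groups overlapped. The 2.06-fold decrease in males had the smallest p of the 10 genes (log2 fold change -1.04, SE 0.09, edgeR adjusted p = 2.58e-08). In females the log2 fold change was -0.09 (95% interval -0.28 to 0.10), and the effects in the sexes differed by -0.95 (SE 0.13, edgeR adjusted p = 8.4e-05).

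Ggct (chr6:54982580-54992950) encodes gamma-glutamylcyclotransferase, which turns gamma-glutamyl amino acids into 5-oxoproline. Its level was 38.1 to 91.8 CPM in Ctrlm (median 50.5), 26.4 to 31.7 in cKOm (median 28.5), 22.04 to 38.3 in Ctrlf (median 29.8) and 23.9 to 37.3 in cKOf mice (median 31.8). No cKOm kidney reached the lowest Ctrlm kidney, and the highest value, that of Ctrlm replicate 5, was far above the rest of its group. The transcript was 1.92-fold lower in cKOm mice (log2 fold change -0.94, SE 0.15, edgeR adjusted p = 0.000207), or -0.73 on the log2 scale without that kidney. In females the log2 fold change was 0.09 (95% interval -0.23 to 0.41), and the effects differed by -1.03 (SE 0.22, edgeR adjusted p = 0.00728).

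Oplah (chr15:76296601-76328015) encodes 5-oxoprolinase, which reopens 5-oxoproline to glutamate and closes the cycle. It lay at 109 to 179 CPM in Ctrlm (median 120.3), 135 to 165 in cKOm (median 149), 111 to 137 in Ctrlf (median 125) and 126 to 158 in cKOf mice (median 136). Medians were higher in both cKO groups, with overlap in both sexes. The log2 fold change was 0.23 in males (SE 0.10, edgeR adjusted p = 0.212) and 0.15 in females (SE 0.10, edgeR adjusted p = 0.495). Without Ctrlm replicate 3, the highest kidney of its group, the male estimate was 0.35 with an edgeR adjusted p of 0.00801, so its call turned on 1 kidney. Of its exon bases 6.60% are shared with Exosc4 on the opposite strand, which had at most 387 counts in a kidney against at least 2130 for Oplah.

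For the other 4 genes called in males, the difference between the sexes did not pass the interaction test. It was -0.37 for Gclm (95% interval -0.59 to -0.14, edgeR adjusted p = 0.0775), -0.48 for Gss (-0.77 to -0.18, edgeR adjusted p = 0.0822) and 0.67 for Ggt6 (0.27 to 1.07, edgeR adjusted p = 0.0696), beside the value for Gsr above. These lay near the threshold. DESeq2 called Gclm, Gss and Ggt6 as well (adjusted p = 0.0214, 0.0290 and 0.0445), and so did edgeR when certain single kidneys were left out. That held for Gclm without Ctrlf replicate 1 (adjusted p = 0.0326), Ctrlm replicate 6 (0.0445) or cKOm replicate 3 (0.0472). It held for Gss without Ctrlf replicate 4 (adjusted p = 0.0419) or Ctrlm replicate 2 (0.0242). For Ggt6 it held without Ctrlm replicate 2 (0.0487) or Ctrlm replicate 6 (0.0226). Most alternatives did not call them: of 32, 5 called Gclm, 3 called Gss and 3 called Ggt6. Without the 5 kidneys high in hepatocyte transcripts the edgeR adjusted p was 0.189 for Gclm, 0.0639 for Gss and 0.294 for Ggt6. Over all genes DESeq2 called 574 in this test and edgeR 372.

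**Figure D2:**
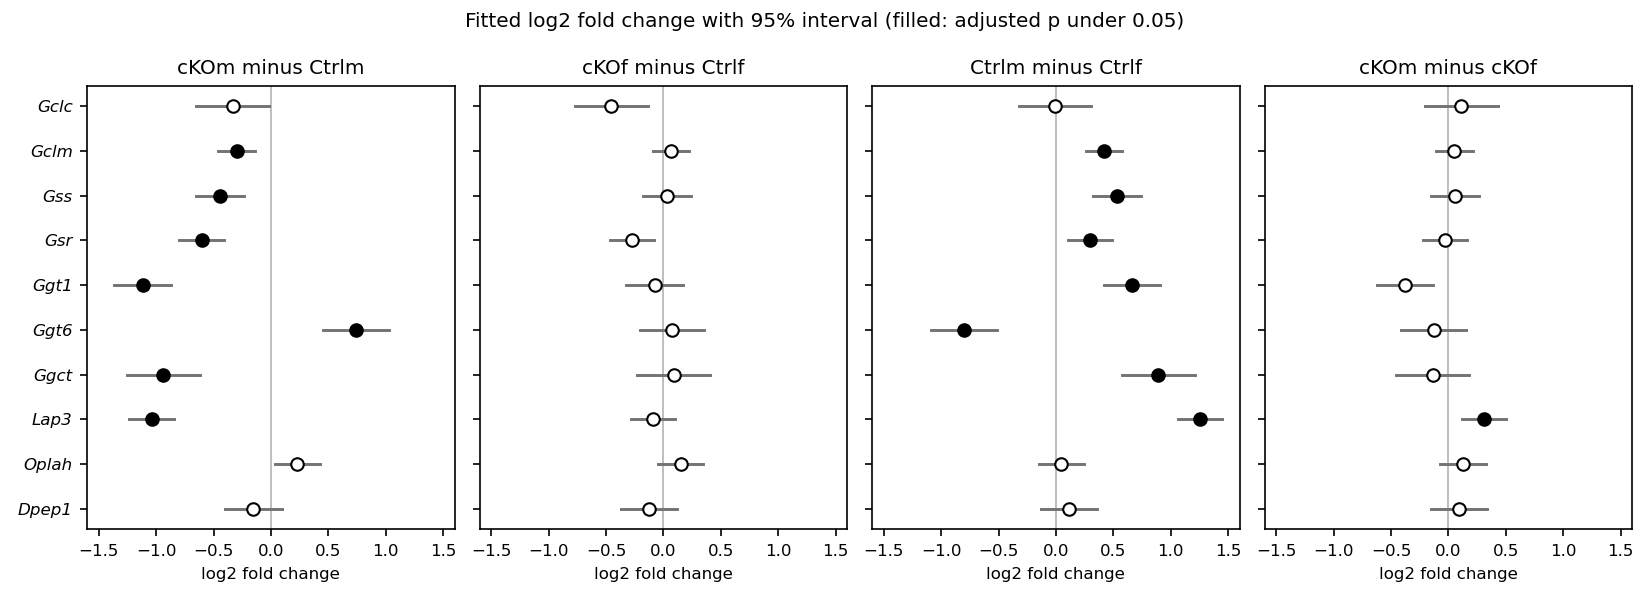
Fitted log2 fold change of the 10 genes with its 95% interval in 4 comparisons (filled points: adjusted p under 0.05). The 7 genes called in cKOm minus Ctrlm are those called in Ctrlm minus Ctrlf, on opposite sides of 0, and the panel for cKOf minus Ctrlf has no filled point.

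The sexes differed in these genes without any deletion. In control kidneys, Gclm, Gss, Gsr, Ggt1, Ggct and Lap3 were higher in males than in females and Ggt6 was lower, so 7 of the 10 were called, where 16.8% of all tested genes were (8.72% higher and 8.11% lower in males). For 3 of them, Gclm, Lap3 and Ggt6, the Ctrlm and Ctrlf kidneys did not overlap, against 7.35% of all tested genes. These are the 7 genes called in cKOm against Ctrlm mice, each in the opposite direction, but both comparisons use the same 6 Ctrlm kidneys, so they are not independent of each other.

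Lap3 showed the largest sex difference, 2.39-fold higher in Ctrlm than in Ctrlf mice (log2 fold change 1.26, SE 0.09, edgeR adjusted p = 7.63e-11), beside -1.04 for cKOm against Ctrlm. Ggct was 1.86-fold higher (0.89, SE 0.15), beside -0.94, and Ggt1 1.58-fold higher (0.66, SE 0.12), beside -1.12. Against the female groups, cKOm kidneys lay in the same range for Ggct, overlapped them at their upper end for Lap3 and lay below them for Ggt1. Gss was 1.45-fold higher in Ctrlm mice (0.53, SE 0.10), Gclm 1.34-fold (0.42, SE 0.08) and Gsr 1.23-fold (0.30, SE 0.09). Ggt6 was 1.74-fold lower in Ctrlm mice (-0.80, SE 0.14), beside 0.74 for cKOm against Ctrlm. The call of Gsr was the weakest (edgeR adjusted p = 0.0281), with an edgeR adjusted p of 0.0630 without Ctrlf replicate 1, 0.0771 without Ctrlf replicate 3, 0.0507 without Ctrlm replicate 4 and 0.0855 without the 5 kidneys high in hepatocyte transcripts. Gclc, Oplah and Dpep1 differed between Ctrlm and Ctrlf mice by -0.01, 0.05 and 0.12, with 95% intervals of -0.32 to 0.31, -0.15 to 0.25 and -0.13 to 0.36.

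The cKO groups were then compared between sexes, a comparison added after the data were seen. Of the 10 genes 1 was called, Lap3, where 8.14% of all tested genes were. Lap3 was 1.24-fold higher in cKOm than in cKOf mice (log2 fold change 0.31, SE 0.09, edgeR adjusted p = 0.0383), a call that held in 6 of 20 alternatives. Leaving out single cKO kidneys gave an edgeR adjusted p between 0.0153 and 0.0852. Ggt1 was the only one whose cKOm and cKOf kidneys did not overlap, against 6.77% of all tested genes, with cKOm mice 1.30-fold lower (log2 fold change -0.38, SE 0.12, edgeR adjusted p = 0.0502). Ggt1 was called here in 4 of 20 alternatives. These were DESeq2 (adjusted p = 0.0279), edgeR with the filter at 1 CPM in 6 kidneys (0.0457) and edgeR without cKOf replicate 1 (0.0428) or cKOf replicate 3 (0.0483). The edgeR adjusted p of Ggt1 was 0.141 without cKOf replicate 6 and 0.0645 without the 5 kidneys high in hepatocyte transcripts. The other 8 had estimates between -0.14 and 0.13.

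Levels of different genes were compared per kilobase of exon. In Ctrlm kidneys Ggt1 was the highest of the 10, at 347 ± 71.2 CPM per kb (SD, n = 6), followed by Lap3 at 162 ± 28.4 and Gclc at 139.6 ± 33.7, whose ranges overlapped. Gclm (66.9 ± 3.87), Gsr (64.4 ± 4.00), Gss (54.9 ± 8.87) and Dpep1 (52.7 ± 5.70) formed a middle group with overlapping ranges. Oplah stood at 22.1 ± 4.49, Ggct at 7.12 ± 2.40 and Ggt6 at 3.20 ± 0.727 CPM per kb. In cKOm kidneys Ggt1 remained the highest at 160.0 ± 15.6, but Gclc (111 ± 14.7) now exceeded Lap3 (78.9 ± 3.86), and Ggt6 (5.38 ± 0.974) exceeded Ggct (3.72 ± 0.271). Both pairs stood in the same order in Ctrlf mice, with Gclc at 140.3 ± 38.3 over Lap3 at 67.9 ± 6.31. Ggt6 was at 5.58 ± 0.906 over Ggct at 3.83 ± 0.764 CPM per kb, with overlap. The order of Ggt6 and Ggct depends on the length used, the union of exon bases, which was 1818 for Ggt6 and 7745 for Ggct. In CPM Ggct was the higher, with a mean of 28.8 against 9.78 in cKOm mice.

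**Figure D3:**
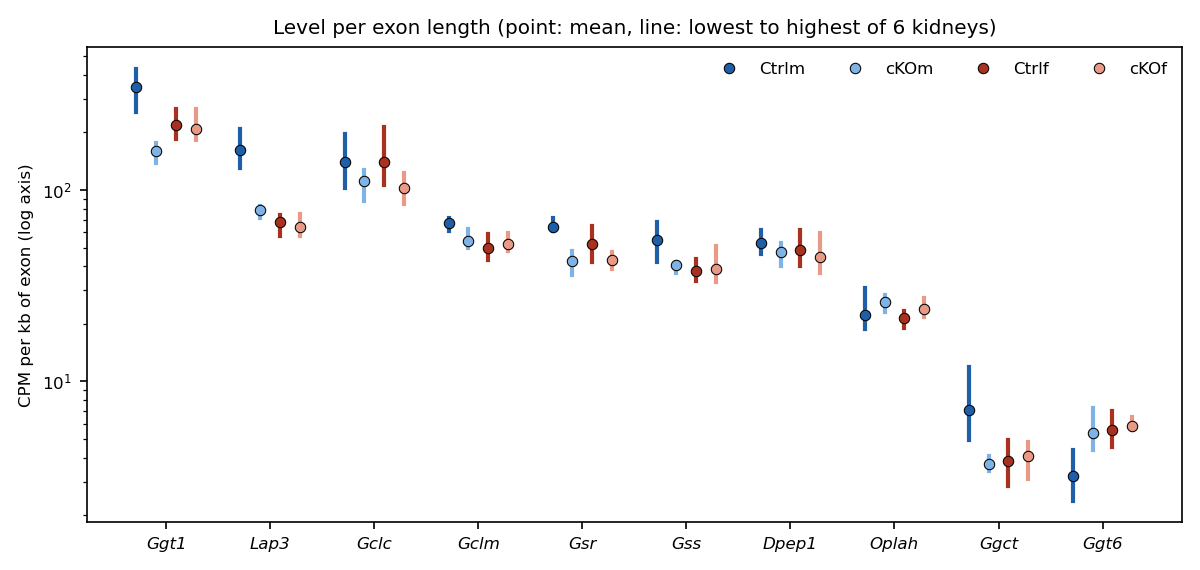
Level per kilobase of exon (CPM per kb, log axis) of the 10 genes, ordered by their mean in Ctrlm mice (points: means, lines: lowest to highest of 6 kidneys). Ggt1 has the highest mean in every group, from 160.0 CPM per kb in cKOm to 347 in Ctrlm mice, and the Lap3 and Gclc ranges are separate in cKOm mice.

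Markers of tubule segments moved in the same comparison. The 5 markers of the S3 segment summed to 2460 to 3490 CPM in Ctrlm and 879 to 1249 CPM in cKOm mice, and 4 of the 5 fell. The sum was 802 to 1012 CPM in Ctrlf and 737 to 981 CPM in cKOf mice. These markers differed by sex and from each other. Slc7a13 had a median of 825 CPM in Ctrlm and 1.36 CPM in Ctrlf mice, and Slc22a13 31.0 and 59.8 CPM. Slc22a7 had a median of 233 CPM in Ctrlm, 12.5 CPM in cKOm and 265 CPM in Ctrlf mice. The sum therefore cannot be read as the amount of S3 segment. The S1 and S2 markers summed to 7912 to 8985 CPM in Ctrlm and 6403 to 7234 CPM in cKOm mice, and 3 of the 6 fell. None was called higher, although Slc5a12 lay at 429 to 608 CPM in cKOm and 210 to 402 CPM in Ctrlm mice. Thick limb and distal tubule markers summed to a median of 5275 CPM in Ctrlm and 6096 CPM in cKOm mice, with 1 of 5 called, higher. The part of segment makeup in the changes of the 10 genes was not tested.

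Hepatocyte transcripts also moved with genotype in males, where 4 of their 10 markers were called lower and 1 higher. Without the 5 kidneys that held most of them, Lap3 (log2 fold change -1.18, edgeR adjusted p = 1.16e-05), Ggt1 (-1.18, 9.44e-05), Ggct (-1.31, 0.000439), Gsr (-0.65, 0.00962) and Gss (-0.60, 0.0193) were still called, so that 5 of the 10 genes were called, where 3.75% of all tested genes were. Ctrlm replicates 5 and 6, whose hepatocyte sums were 112 and 75.9 CPM, had values of these 5 genes within or above the range of the other Ctrlm kidneys. The Ctrlm arm then held only these 2 kidneys, and replicate 5 was the highest of the 6 Ctrlm kidneys for Lap3, Gss and Ggct. For Ggct the estimate leaned on it, at -1.31 with this arm and at -0.73 when replicate 5 alone was left out of the 6.

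**Figure D4:**
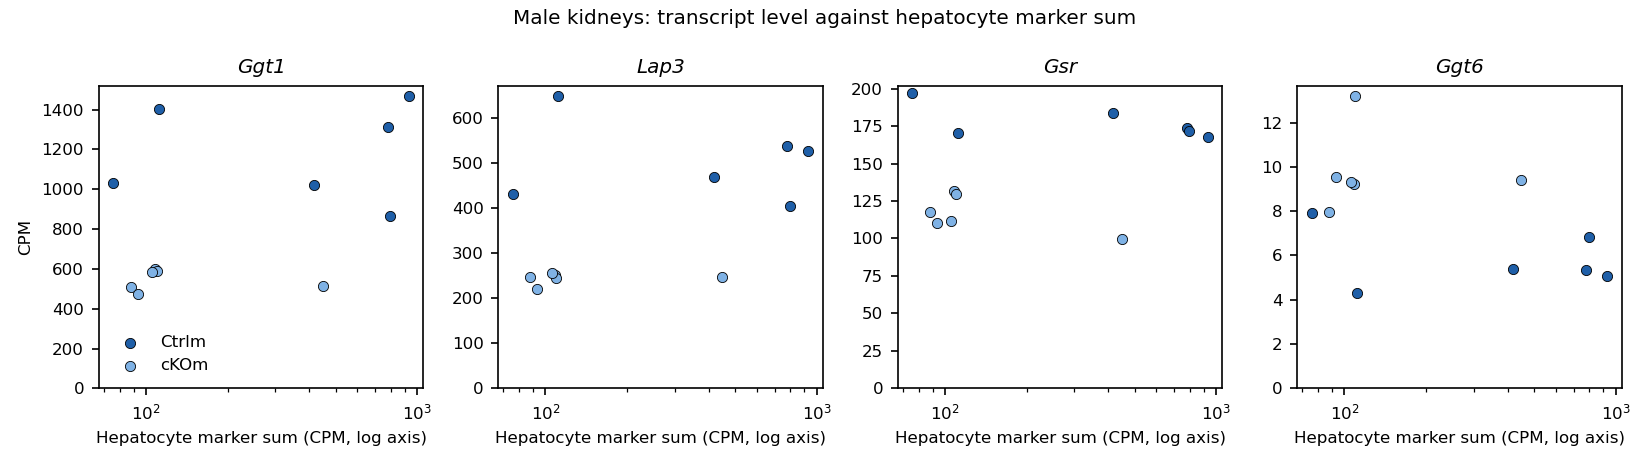
Level of Ggt1, Lap3, Gsr and Ggt6 in the 12 male kidneys (CPM, linear axis from 0) against the summed level of 10 hepatocyte markers (CPM, log axis). The Ctrlm kidneys at 112 and 75.9 CPM of hepatocyte markers lie above all cKOm kidneys for Ggt1, Lap3 and Gsr, and cKOm replicate 4, at 448 CPM, lies with its own group.

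The profile closest to that of Ggt1 over the 24 kidneys was sought among all tested genes, by the root mean square distance between log2 CPM profiles centred on their means. The 5 nearest were Tmem120a (0.15), Ccdc107 (0.17), Eci3 (0.18), Zfp444 (0.19) and Pepd (0.19). Eci3 encodes a peroxisomal enoyl-CoA isomerase and Pepd the dipeptidase that splits dipeptides ending in proline. Tmem120a fell from a mean of 59.5 CPM in Ctrlm to 27.0 CPM in cKOm mice, and Eci3 from 267 to 152 CPM. Of the other 9 genes of the pathway, Gsr and Gss were the nearest, both at 0.28. Ggct followed at 0.29 and Lap3 at 0.34, and Ggt6 was the farthest at 0.79. Gsr, Gss, Ggct and Lap3 ranked 83, 84, 103 and 318 among 16091 genes, whose median distance was 0.55.

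Around the cycle, 5 lists of glutathione pathway genes (56 genes, 53 tested) were read in the same fit. In males 14 of the 53 fell and 1 rose, where 4.9% of all tested genes fell and 4.14% rose, with a median log2 fold change of -0.19 against 0.01 over all tested genes. At an unadjusted p under 0.05 there were 23 of the 53, against 25.1% of all tested genes. In females none of the 53 passed by edgeR, where 0.851% of all tested genes did. DESeq2 called 1, Slc1a1, where it called 1.17% of all tested genes, and limma-voom called none, where it called 0.826%. An unadjusted p under 0.05 was reached by 7 in edgeR's test, against 6.73% of all tested genes. The median in females was -0.03.

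When the 5 kidneys high in hepatocyte transcripts were left out, a setting added after the data were seen, 7 of the 53 were called, all lower and all among the 15 called before, where 3.75% of all tested genes were. Acy3, Acy1, Gpx1, Txn1, Me1, Slc1a4 and Slc25a39 stayed, and Cbs, Cth, Slc1a1, Slc3a1, Gpx4, Esd, Slc25a10 and Abcc4 were no longer called, with a Ctrlm arm of 2 kidneys.

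Of the genes that supply cysteine and glutamate, 5 of 10 tested fell in cKOm mice, where 4.9% of all tested genes fell. The other 5 were not called. Cbs and Cth, the enzymes of transsulfuration that lead from homocysteine to cysteine, fell 2.08-fold (from a mean of 182 to 87.6 CPM, edgeR adjusted p = 0.000214) and 1.34-fold (141 to 105 CPM, edgeR adjusted p = 0.00103). The glutamate transporter Slc1a1 fell 1.24-fold (299 to 242 CPM, edgeR adjusted p = 0.00202) and the neutral amino acid transporter Slc1a4 1.87-fold (23.8 to 12.7 CPM, edgeR adjusted p = 9.6e-05). All 6 cKOm kidneys were below all 6 Ctrlm kidneys for Slc1a1, Slc1a4 and Cth, while for Cbs the highest cKOm kidney, at 125 CPM, passed the lowest Ctrlm kidney, at 120.03 CPM. Of the 5, only Slc1a4 was called without the 5 kidneys (edgeR adjusted p = 0.00931). For Cbs the edgeR adjusted p was 0.131, with a log2 fold change of -0.68 instead of -1.06. The edgeR adjusted p was 0.120 for Cth (log2 fold change -0.39 instead of -0.42) and 0.0979 for Slc1a1 (-0.30 instead of -0.31). Slc7a11, the cystine exchanger, was below the filter and was not tested.

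Among other breakdown and mercapturate enzymes, 2 of 8 tested fell in cKOm mice, where 4.9% of all tested genes fell. Acy3, an aminoacylase that deacetylates mercapturates, fell 3.08-fold, from 1523 to 2853 CPM in Ctrlm to 563 to 868 CPM in cKOm mice (edgeR adjusted p = 1.11e-08), a level near that of Ctrlf (497 to 753 CPM) and cKOf mice (549 to 792 CPM). Acy1, the related aminoacylase, fell 2.12-fold (73.7 to 34.8 CPM, edgeR adjusted p = 1.38e-06), and here the cKOm range of 32.1 to 37.8 CPM lay under those of both female groups (77.8 to 124 and 66.1 to 114 CPM). Nat8, which acetylates cysteine conjugates, had means of 81.2 CPM in Ctrlm and 47.4 CPM in cKOm mice (edgeR adjusted p = 0.0612), and Chac2, a cytosolic glutathione-splitting cyclotransferase, 29.1 and 23.7 CPM (edgeR adjusted p = 0.198). Dpep2 and Dpep3 were below the filter.

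Peroxidases and disulfide reductases followed, with 4 of 17 lower and 13 not called in cKOm mice, where 4.9% of all tested genes were lower. Gpx1, the main cytosolic glutathione peroxidase, fell 1.49-fold (1212 to 814 CPM, edgeR adjusted p = 0.00167) and Gpx4, which reduces lipid hydroperoxides, 1.36-fold (183 to 135 CPM, edgeR adjusted p = 0.0479). Thioredoxin, Txn1, fell 1.59-fold (92.2 to 58.0 CPM, edgeR adjusted p = 0.0116). Esd, which releases glutathione from its formyl conjugate, fell 1.30-fold (258 to 198 CPM, edgeR adjusted p = 0.0281). Gpx4 (edgeR adjusted p = 0.0939) and Esd (0.0853) were not called without the 5 kidneys, and limma-voom did not call Gpx4 either. Without the 5 kidneys the log2 fold change was -0.65 instead of -0.44 for Gpx4 and -0.53 instead of -0.38 for Esd.

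Of 10 genes for NADPH, the electron donor of Gsr, 1 was called, a share near the 9.05% over all tested genes, and it was Me1. Malic enzyme 1 fell 1.66-fold, from 499 to 659 CPM in Ctrlm to 301 to 405 CPM in cKOm mice without overlap (edgeR adjusted p = 8.61e-07), and stayed above the female groups at 203 to 257 and 205 to 252 CPM. H6pd (214 and 177 CPM, edgeR adjusted p = 0.0845), Idh1 (434 and 374 CPM, edgeR adjusted p = 0.130) and Aldh1l1 (466 and 392 CPM, edgeR adjusted p = 0.180) were not called. Of 8 genes of efflux and mitochondrial import, 2 fell and 1 rose, where 4.9% of all tested genes fell and 4.14% rose. Slc25a39, needed for glutathione import into mitochondria, fell 1.42-fold (431 to 304 CPM, edgeR adjusted p = 0.00121) and the dicarboxylate carrier Slc25a10 1.37-fold (239.6 to 174 CPM, edgeR adjusted p = 0.00686). Abcc4, an exporter of organic anions and glutathione, rose 1.63-fold (72.4 to 118 CPM, edgeR adjusted p = 0.00854), and Abcc2 had means of 578 and 719 CPM (edgeR adjusted p = 0.193). Slc25a39 was called without the 5 kidneys too (edgeR adjusted p = 0.0170), and Slc25a10 (0.503) and Abcc4 (0.212) were not. Without them the log2 fold change was -0.25 for Slc25a10, and 0.68 instead of 0.71 for Abcc4.

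**Figure D5:**
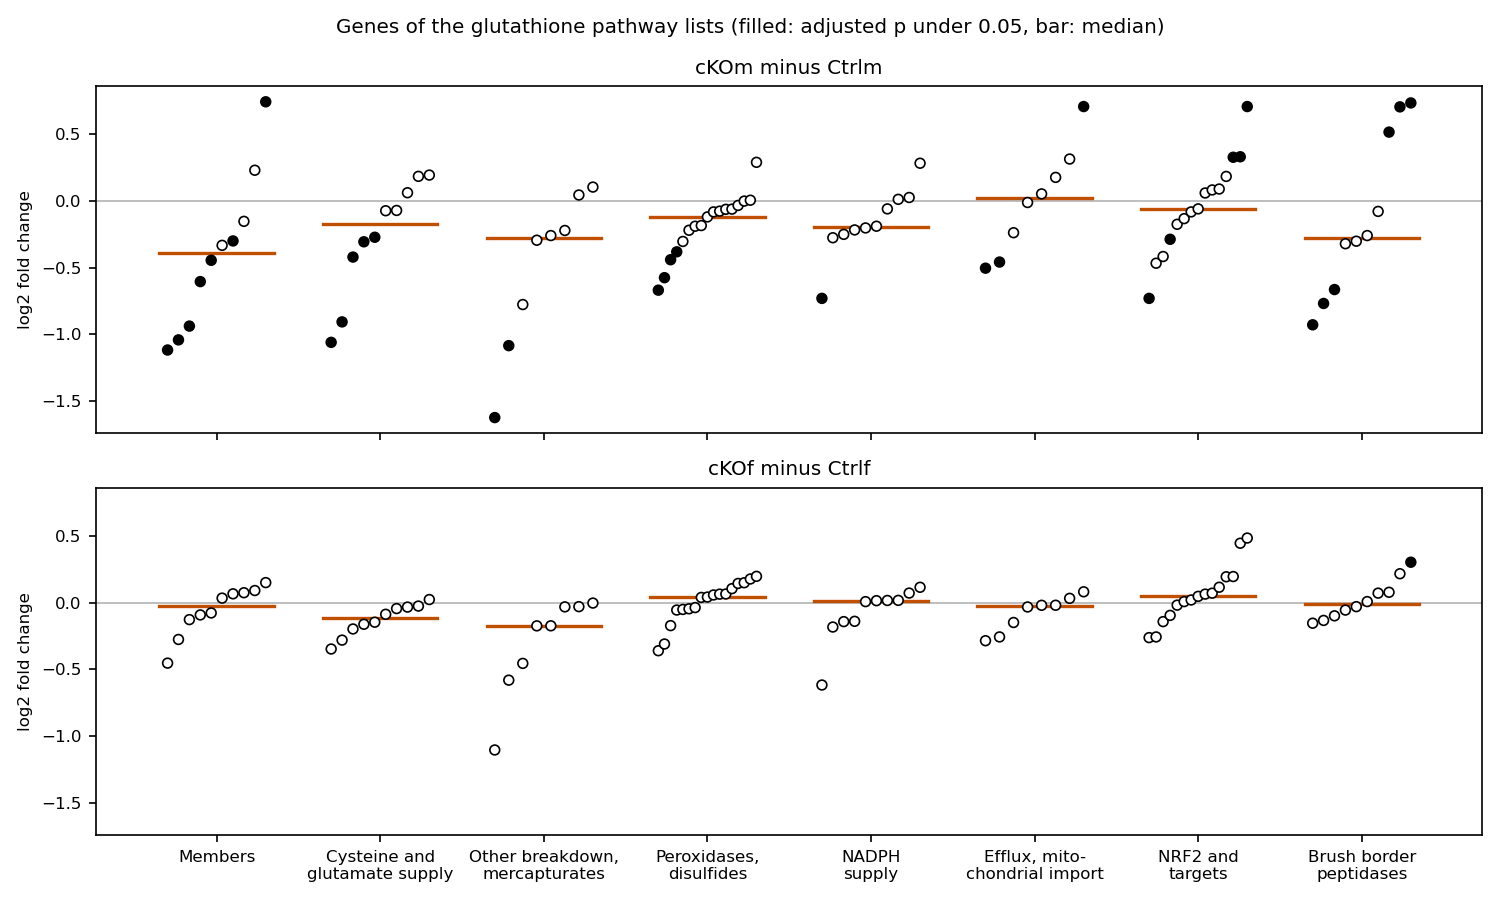
Log2 fold change of the 10 genes and of each pathway list in males (top) and females (bottom), with 1 point per gene (filled: adjusted p under 0.05, bar: median of the list). In males the lower calls outnumber the higher ones in the first 6 columns, and in females the single filled point is Dpp4 among the brush border peptidases.

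Gclc, Gclm and Gsr are classic targets of the transcription factor NRF2, and the other genes of that pathway did not move one way. Of 15 tested, 3 rose and 2 fell in cKOm mice, where 4.14% of all tested genes rose and 4.9% fell. Without the 5 kidneys 1 was called, Me1, where 3.75% of all tested genes were. Srxn1, which restores oxidised peroxiredoxins, rose 1.26-fold (53.4 to 67.3 CPM, edgeR adjusted p = 0.00867) and Abcc4 rose as given above, whereas Me1 fell and the autophagy receptor Sqstm1 fell 1.22-fold (443 to 363 CPM, edgeR adjusted p = 0.0151). In females none of the 15 was called by edgeR, where 0.851% of all tested genes were. At an unadjusted p under 0.05 there were 2, Hmox1 and Srxn1, against 6.73% of all tested genes. DESeq2 and limma-voom called none of the 15 in females, where they called 1.17% and 0.826% of all tested genes.

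Ggt1 and Dpep1 sit on the brush border with other peptidases, of which 10 were tested. In cKOm mice 3 fell and 3 rose, where 4.9% of all tested genes fell and 4.14% rose. Without the 5 kidneys the 3 that fell stayed called and the 3 that rose did not, where 3.75% of all tested genes were called. The meprin subunits Mep1b and Mep1a fell 1.90-fold (191 to 100.2 CPM, edgeR adjusted p = 1.39e-06) and 1.58-fold (1770.3 to 1118 CPM, edgeR adjusted p = 1.45e-07), and angiotensin converting enzyme, Ace, 1.70-fold (288 to 169 CPM, edgeR adjusted p = 8.61e-05). Dpp4, dipeptidyl peptidase 4, rose 1.43-fold in males (101 to 144 CPM, edgeR adjusted p = 0.000418) and 1.23-fold in females (138 to 171 CPM, edgeR adjusted p = 0.0473), the only gene of any of these lists called in females by edgeR. Without the 5 kidneys Dpp4 was called in neither sex. All of them are male, so no female kidney was left out, and the female log2 fold change was 0.30 with and without them. The median log2 fold change of the 10 peptidases was -0.28 in males and -0.01 in females.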

How the data were processed

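Whole-kidney RNA was sequenced from TruSeq Stranded mRNA libraries. Per the labels, the authors trimmed reads with cutadapt 1.8, aligned them to GRCm38 with STAR 2.5.3a and deposited counts of reads per gene made with HTSeq 0.9.1, and the strand setting of the counting is not given in the sources used here. The 5 closing lines of each file (reads not assigned to a gene, 34.0% to 41.5% of reads) were set aside. Gene names came from GENCODE M21 (GRCm38), which held 55154 of the 55335 genes. Genes reaching 1 CPM in 1 or more kidneys were fitted in R 4.3.3 with edgeR 4.0.16 (TMM scaling, quasi-likelihood test) in 1 model of 4 groups. Benjamini-Hochberg adjustment ran over the male and female tests together, following the study's methods, and over each other test alone. The threshold was 0.05, and the edgeR code was tested on simulated data. Where the study's methods used limma-voom, edgeR was the main test here because the files hold counts, and limma 3.58.1 and DESeq2 1.42.0 were alternatives. Levels per kb divide CPM by the union of a gene's exon bases. At this depth 3 counts correspond to 0.105 to 0.155 CPM. Replicates of a group were distinct libraries, since the chi-square per degree of freedom was 9.24 or more in all 60 pairs. All 10 pathway genes are named, up to 4 genes of each list with the smallest p in males, and the 5 profiles nearest to the gene with the largest change in males. The 10 genes and the lists were chosen with earlier results of these data known.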

Additional observations from a re-analysis of the deposited data

Results flagged for a closer look

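Among 40 groups of 6 kidneys (10 genes in 4 groups), 7 had 1 kidney whose gap to its nearest neighbour was above Dixon's 95% critical share of the group's range, where chance gives about 1 in 20. Gclc reached 805.7 CPM in Ctrlf replicate 4, with the next kidney at 536.3 CPM. In cKOf replicate 6, Gss stood at 303.2 CPM over a next value of 230.9 CPM and Ggt1 at 901.7 CPM over 723.4 CPM. Ggt6 was 13.2 CPM in cKOm replicate 3, with the next kidney at 9.542 CPM. Ggct was 91.78 CPM in Ctrlm replicate 5, with the next at 51.45 CPM. Lap3 was lowest in cKOm replicate 5 at 221.2 CPM, under 245.3 CPM in the next kidney. Oplah was 179.4 CPM in Ctrlm replicate 3, with the next at 135.0 CPM.

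The genotype effect differed between males and females by edgeR's interaction test for 3 genes, where sex and the extent of deletion cannot be told apart. The log2 difference, males minus females, was -1.04 for Ggt1 (adjusted p = 0.000515), -1.028 for Ggct (adjusted p = 0.00728) and -0.949 for Lap3 (adjusted p = 8.4e-05), and all 3 were called in each of 32 alternatives.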

How the results depend on the processing

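The count of pathway genes called in cKOm against Ctrlm mice (7) stayed within 1.5 times under 10 alternatives and was 6 to 8 when single kidneys were left out. It was 6 with the hepatocyte score as covariate and 5 without the 5 kidneys high in hepatocyte transcripts. In females the count was 0, 1 with DESeq2 (which called 1.17% of all tested genes), and 0 to 1 without single kidneys. The interaction count was 3 (of 372 genes called over all), 6 with DESeq2 (of 574), and 3 to 5 without single kidneys. In Ctrlm against Ctrlf it was 7, and 6 to 7 without single kidneys. In cKOm against cKOf it was 1, with 2 at a filter of 1 CPM in 6 kidneys and by DESeq2, 0 with every gene with a count, with the replicate block, with the hepatocyte covariate and without the 5 kidneys, and 0 to 1 without single kidneys.

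Same-numbered kidneys of different groups did not deviate together (r from -0.199 to 0.120, median -0.037, over 36 pairs). Of 24 kidneys, 0 correlated best with their own number. No pairing by number was seen, but one with little effect over all genes would not show in this check. With the replicate block 7, 0, 3, 6 and 0 pathway genes were called in cKOm against Ctrlm, cKOf against Ctrlf, the interaction, Ctrlm against Ctrlf and cKOm against cKOf, the last 2 losing Gsr and Lap3.

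Of the log2 fold changes of the 10 genes, 1092 kept direction and side of the threshold, 24 lost and 19 gained the call, and 25 changed sign, none of them a called value. Gclc in Ctrlm against Ctrlf turned from -0.01 to 0.015 (RLE), 0.0037 (1 CPM in 6 kidneys), 0.012 (every gene with a count), 0.0096 (replicate block), 0.095 (hepatocyte covariate), 0.015 (DESeq2), 0.099 (without the 5 kidneys) and between -0.13 and 0.17 without single kidneys. Oplah there turned to -0.027 (hepatocyte covariate) and ranged from -0.069 to 0.093 without single kidneys. Gsr in cKOm against cKOf turned to 0.0043 without the 5 kidneys and ranged from -0.070 to 0.0096 without single kidneys. The interaction ranged without single kidneys from -0.12 to 0.074 for Dpep1 and from -0.054 to 0.24 for Gclc, and the female change of Gss from -0.061 to 0.077. The cause was not tested in any of these.

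Over all genes, 1456 calls in males became 933 with the hepatocyte covariate and 599 without the 5 kidneys, 137 in females became 43 with adjustment within each sex and 83 without the 5 kidneys, 372 of the interaction became 574 with DESeq2, and 2708 of Ctrlm against Ctrlf became 1318 with the covariate and 1570 without the 5 kidneys. The 5 kidneys are all male, and the female tests share the model and the adjustment with the male ones. Depth was lowest for Ggt6, with at least 83 counts per kidney.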
